A study of Mus musculus with 3 samples.

Results

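Distal regions are the called H2AK119ub regions to which the submitters' annotation gave the location class distal and the name of 1 gene each. All rows of that class were taken from the region lists of both replicates, 1755 of 7838 regions in replicate 1 and 1836 of 8093 in replicate 2, or 3591 of 15931 rows in all. The libraries came from chromatin immunoprecipitation and sequencing (ChIP-seq) of the tongue epithelium of newborn mice at postnatal day 0. Epithelial cells were sorted by the surface protein EpCAM after the circumvallate papillae had been cut away. The mice carried the genotype label Control, and the sources used here do not give the alleles behind it. There were 2 biological replicates of 1 group, and the input was not analysed here, so no mutant was compared and no test between groups was possible. The lists hold positions, classes and names but no heights, so sequencing depth is unknown, and a called region does not say what share of the sorted cells carried the mark.

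H2AK119ub is histone H2A ubiquitinated on the lysine that gives the mark its name by Polycomb repressive complex 1 (PRC1), which keeps developmental genes silent. The mark usually forms domains over CpG-rich promoters of silent regulators, and from there it can spread over neighbouring chromatin. Sites away from promoters can hold enhancers, outlying parts of a promoter domain, or stretches with no known element.

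The regions that carry the main results mostly lie upstream of genes whose own start was either called or not called as a promoter region. No sequence of the distal regions themselves is shown, and the 250 bases before the start of 6 of the named genes, from RefSeq on GRCm38.p6, equivalent to mm10, show the promoters these regions stand apart from. They are written 5′ to 3′ on the gene's strand with each CG dinucleotide in capitals, since CpG density is the promoter feature PRC1 domains are best known for. Ampd3 (chr7:110768372-110768621, plus strand), Gm5122 (chr9:61016819-61017068, plus strand) and Wnt11 (chr7:98834862-98835111, plus strand) had distal and promoter regions in both replicates. Gm10782 (chr13:56362650-56362899, plus strand), Tmem33 (chr5:67260315-67260564, plus strand) and Wnt4 (chr4:137277385-137277634, plus strand) had distal regions in both replicates and no promoter region in either. Wnt11 and Wnt4 were chosen for display after their values were seen.
Ampd3: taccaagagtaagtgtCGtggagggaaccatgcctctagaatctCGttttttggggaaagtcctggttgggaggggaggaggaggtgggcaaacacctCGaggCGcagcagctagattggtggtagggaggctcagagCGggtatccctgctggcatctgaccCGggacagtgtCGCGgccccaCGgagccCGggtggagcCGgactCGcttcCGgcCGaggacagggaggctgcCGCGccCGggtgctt
Gm5122: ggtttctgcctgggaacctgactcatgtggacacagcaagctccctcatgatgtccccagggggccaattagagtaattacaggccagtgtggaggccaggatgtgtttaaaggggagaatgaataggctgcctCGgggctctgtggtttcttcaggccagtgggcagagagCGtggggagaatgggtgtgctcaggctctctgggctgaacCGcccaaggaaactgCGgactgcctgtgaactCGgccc
Wnt11: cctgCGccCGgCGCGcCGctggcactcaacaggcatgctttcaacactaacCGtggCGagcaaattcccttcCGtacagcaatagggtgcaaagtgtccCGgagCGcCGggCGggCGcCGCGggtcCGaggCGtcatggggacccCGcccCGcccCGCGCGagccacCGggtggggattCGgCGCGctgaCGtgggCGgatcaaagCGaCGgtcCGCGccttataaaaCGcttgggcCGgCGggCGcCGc
Gm10782: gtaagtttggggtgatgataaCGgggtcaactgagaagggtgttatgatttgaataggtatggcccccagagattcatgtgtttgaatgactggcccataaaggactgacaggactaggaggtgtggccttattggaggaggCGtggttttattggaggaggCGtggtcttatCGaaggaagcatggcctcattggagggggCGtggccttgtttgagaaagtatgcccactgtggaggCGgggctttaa
Tmem33: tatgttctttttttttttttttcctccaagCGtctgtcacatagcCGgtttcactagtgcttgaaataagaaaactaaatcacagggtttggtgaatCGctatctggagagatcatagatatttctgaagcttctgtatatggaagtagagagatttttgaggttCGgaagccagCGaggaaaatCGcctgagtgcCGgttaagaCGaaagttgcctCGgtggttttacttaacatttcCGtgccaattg
Wnt4: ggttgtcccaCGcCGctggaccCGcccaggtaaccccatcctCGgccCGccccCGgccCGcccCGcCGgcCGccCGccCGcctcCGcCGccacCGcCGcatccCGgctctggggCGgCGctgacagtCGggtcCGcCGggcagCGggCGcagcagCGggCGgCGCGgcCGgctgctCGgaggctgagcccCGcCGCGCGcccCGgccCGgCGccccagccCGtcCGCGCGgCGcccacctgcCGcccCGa
These windows hold 17 CG dinucleotides in Ampd3, 5 in Gm5122 and 37 in Wnt11, against 6 in Gm10782, 10 in Tmem33 and 44 in Wnt4. A start rich in CG (Wnt4) and a start poor in CG (Gm5122) thus stood on either side of the division by promoter call. The letters CG read the same on both strands, and 94.6% of the 32851 promoter windows of the reference, each of 300 bases, hold at least 1.

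The first question was where distal regions lay relative to the genes they name. A start of the named gene was listed for 1322 of 1755 distal regions in replicate 1 and 1383 of 1836 in replicate 2. The positions of these regions bear on how the class was assigned: most lay upstream of the start within a sharply bounded window. The rule behind the class is not stated and may itself fix this window, so it is a description of the class and not a finding on where the mark lies. Of the 1322 distal regions of replicate 1 whose named gene has a start in the promoter table, 1169 (88.4%) had their centre 2 to 50 kb upstream of a start, and of the 1383 of replicate 2, 1225 (88.6%) did. The median position of all these centres was 17015 bp upstream in replicate 1, and in replicate 2 it was 16092 bp. Only 6 and 7 regions lay more than 50 kb upstream, while 145 and 138 lay between 40 and 50 kb. The 6 and 7 included the 2 and 4 regions of Rbpj, centred 50.4 to 80.7 kb upstream of its nearest listed start. Their gaps to the bounds of Rbpj were 15.0 to 45.1 kb, so for this gene the distance depended on which start was listed. A further 145 and 151 regions lay downstream of the nearest listed start of the named gene.

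Within the window the number of regions fell beyond 20 kb. Replicate 1 had 274 regions with their centre between 2 and 10 kb upstream, 331 between 10 and 20 kb, 251 between 20 and 30 kb, 168 between 30 and 40 kb and 145 between 40 and 50 kb. Replicate 2 had 292, 360, 253, 182 and 138 in the same steps. Measured to the nearer end of the named gene, the gap had medians of 13274 and 12728 bp in replicates 1 and 2, and 170 and 168 regions touched the bounds of the gene itself. Among regions named for a protein-coding gene with a listed start, that gene also had the nearest protein-coding start for 989 of 1161 (85.2%) in replicate 1 and 1017 of 1199 (84.8%) in replicate 2.

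**Figure D1:**
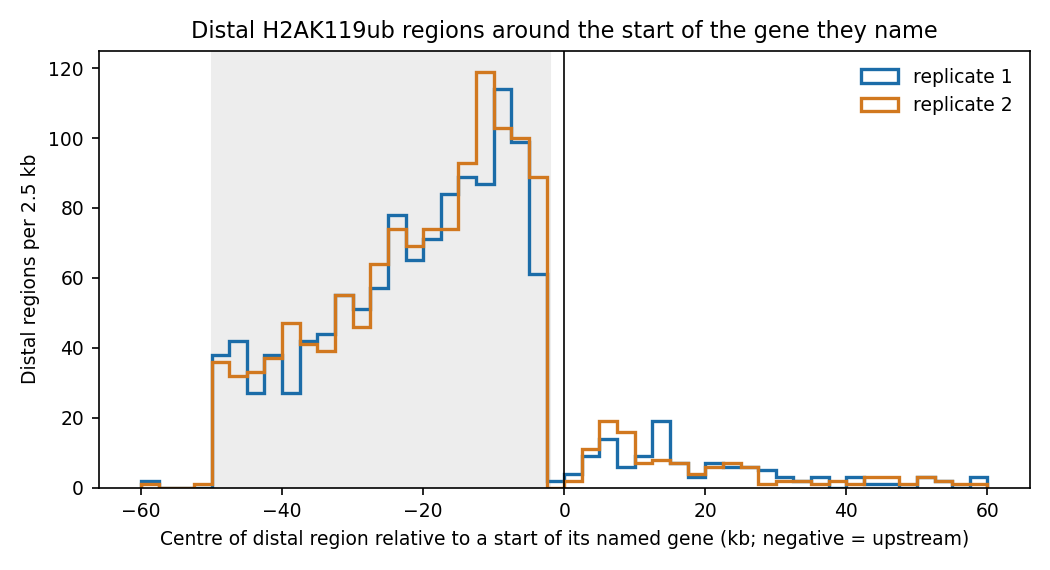
Number of distal regions (vertical axis, per 2.5 kb) by the position of their centre relative to the nearest listed start of the named gene (horizontal axis, kb, negative is upstream, cut at 60 kb), one line per replicate. The grey band marks 2 to 50 kb upstream, which held 88.4% of the replicate 1 regions and 88.6% of the replicate 2 regions with a listed start.

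Distal regions were narrow beside promoter regions. Their median width was 3844 bp in replicate 1 (middle 50% 2292 to 6549 bp, widest 40.1 kb), against 8080 bp for promoter regions, 3701 bp for gene body regions and 4375 bp for intergenic regions. In replicate 2 it was 3290 bp (2034 to 5664 bp, widest 37.2 kb), against 6843 bp for promoter, 3343 bp for gene body and 3637 bp for intergenic regions. The distal share of a list was 22.5% ± 0.21 (SD, n = 2), and these regions held 15.8% of the covered length in replicate 1 (9.50 Mb) and 16.1% in replicate 2 (8.51 Mb). In both lists they were narrower at the median than promoter and intergenic regions and close to gene body regions. No test was run on these differences, because regions of one list are not replicates. The rule behind the classes is not stated, so the width of a region may itself bear on the class it was given, which was not tested.

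The second question was how often a distal region recurred in the other replicate. In replicate 1, 971 of 1755 distal regions (55.3%, exact 95% binomial interval 53.0 to 57.7%) overlapped a region of replicate 2 by at least 1 bp. In replicate 2, 1039 of 1836 (56.6%, 54.3 to 58.9%) overlapped a region of replicate 1. Over all classes the shares were 61.1% and 61.2%, and over the regions of the other 3 classes 62.7% and 62.5%. Promoter regions stood highest at 73.7% and 73.4%, while gene body regions, at 52.7% and 53.4%, and intergenic regions, at 56.3% and 56.8%, lay near the distal class. Intervals here and below cover counting error only.

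Most of the recurring stretches kept their class. Of the shared distal regions, the partner with the longest overlap was distal for 852 in replicate 1 (87.7%) and 867 in replicate 2 (83.4%). A promoter partner was found for 71 and 134, a gene body partner for 28 and 20, and an intergenic partner for 20 and 18. Distal regions that overlapped any distal region of the other list numbered 859 (48.9%) and 873 (47.5%). They formed 908 pairs at 824 separate loci, and 876 of the pairs (96.5%) carried the same gene name in both lists. The paired edges were offset by a median of 1378 bp at the first coordinate and 1262 bp at the last, and the wider region of a pair was at the median 1.602 times as wide as the narrower. Of the 14.4 Mb that distal regions covered in either list, 3.63 Mb was distal in both.

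Where the class changed to promoter, it was mostly the same gene. Distal regions of replicate 1 overlapped promoter regions of replicate 2 in 84 pairs, 71 of them (84.5%) named for the same gene, and distal regions of replicate 2 overlapped promoter regions of replicate 1 in 141 pairs, 120 of them (85.1%) named for the same gene. The distal regions in these pairs had median widths of 4707 and 3794 bp, against 13434 and 14655 bp for the promoter regions. At Gse1 a distal region of 24.2 kb in replicate 1 lay wholly inside a promoter region of 87.8 kb in replicate 2. Of the same-gene pairs, 18 distal regions of replicate 1 and 55 of replicate 2 lay wholly inside the promoter region of the other list. At these places the same stretch was distal in one list and part of a promoter region in the other. No gap between neighbouring regions of a list was under 1000 bp in replicate 1 or 999 bp in replicate 2.

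**Figure D2:**
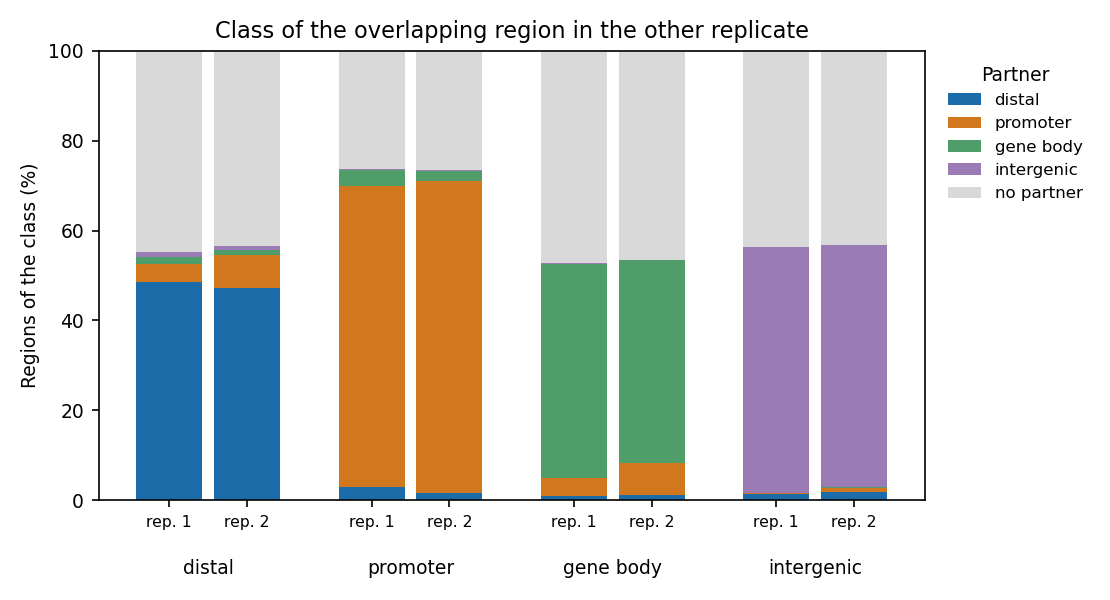
Share of the regions of each class (vertical axis, %) by the class of the region of the other replicate that they overlap longest, one bar per class and replicate, grey where there is no partner. Distal regions had a partner in 55.3% and 56.6% of cases, mostly distal, against 73.7% and 73.4% for promoter regions.

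Wide distal regions recurred more often than narrow ones. In the narrowest 25% of distal regions, 34.9% of replicate 1 (interval 30.4 to 39.5%) and 41.4% of replicate 2 (36.8 to 46.1%) were shared, and in the widest 25%, 76.3% (72.0 to 80.2%) and 75.4% (71.2 to 79.3%). The median width was 4715 and 4123 bp for shared distal regions, against 2876 and 2692 bp for those without a partner. Wider regions meet more of the other list by size alone, and the part of size in this difference was not tested. By distance the shares moved less: between 2 and 10 kb upstream 131 of 274 (47.8%) and 146 of 292 were shared, and between 20 and 30 kb 59.4% and 61.7%. The regions closest to the start were also the narrowest, with medians of 2954 and 2611 bp between 2 and 10 kb, against 3912 and 3523 bp between 20 and 30 kb.

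**Figure D3:**
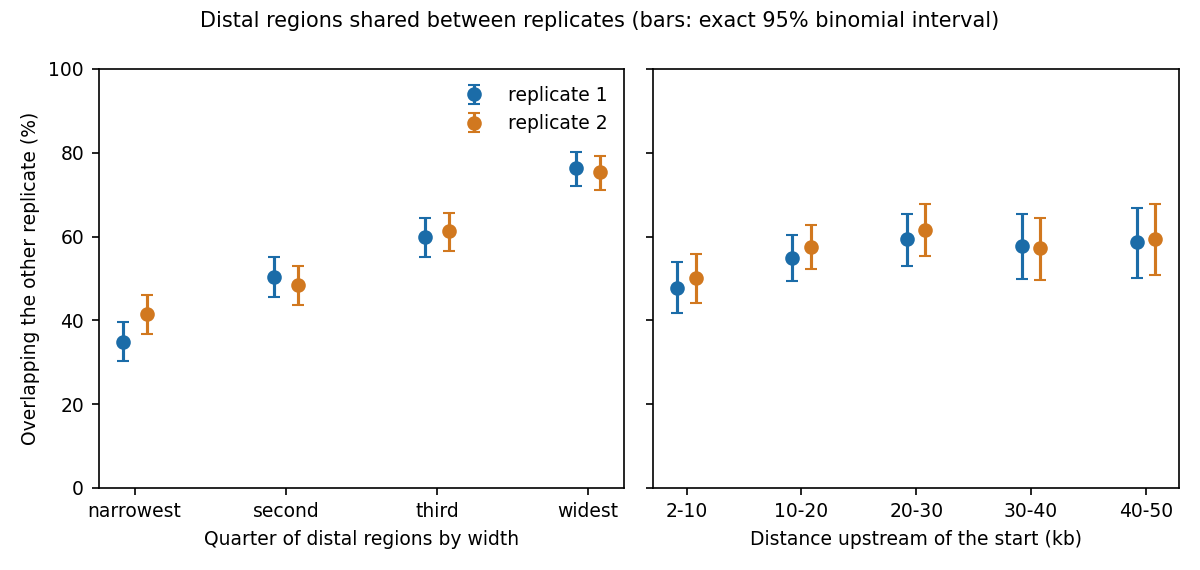
Share of distal regions that overlap a region of the other replicate (vertical axis, %), by width in 4 equal parts (left) and by distance upstream of the named gene's start (right), with exact 95% binomial intervals. The share was 34.9% and 41.4% in the narrowest part and 76.3% and 75.4% in the widest.

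The third question was which genes distal regions name, and whether those genes also carried a promoter region. Replicate 1 named 1489 genes and replicate 2 named 1542, and 825 were named in both, which was 55.4% of the replicate 1 names and 53.5% of the replicate 2 names. Of these 825 genes, 526 (63.8%, exact 95% interval 60.4 to 67.0%) had no promoter row in either list, 123 (14.9%) had one in a single replicate, and 176 (21.3%, 18.6 to 24.3%) had one in both. Among all 21627 protein-coding genes of the reference, 8.82% had a promoter row in both replicates. Restricted to protein-coding names, 148 of 694 distal-named genes (21.3%, 18.3 to 24.6%) had promoter rows in both, against 24.3% of the protein-coding genes that gene body regions named in both replicates. Genes of the distal class carried promoter regions more often than genes at large, at a share close to that of the gene body class, where 23.9% of all names had them. In all, 424 of the 825 genes (51.4%) had distal rows only, with neither a promoter nor a gene body row.

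Most genes had a single distal region. In replicate 1, 1254 genes had 1, 205 had 2, 29 had 3 and 1 had 4, and in replicate 2, 1297 had 1, 204 had 2, 34 had 3, 6 had 4 and 1 had 5. Protein-coding genes took 1500 of the 1755 rows of replicate 1 and 1547 of the 1836 rows of replicate 2, and long noncoding RNA genes took 208 and 242.

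Distal regions of genes with a promoter region were wider at the median and more often shared than the others, at a similar distance from the start. In replicate 1, 477 distal regions belonged to genes with a promoter row of the same list and 1278 to genes without, and in replicate 2, 505 and 1331. The regions of genes with a promoter row had median widths of 4575 and 3825 bp in replicates 1 and 2, against 3659 and 3126 bp for the regions of genes without. They were shared between replicates in 65.2% (60.7 to 69.5%) and 63.2% (58.8 to 67.4%) of cases, against 51.6% (48.9 to 54.4%) and 54.1% (51.4 to 56.8%). Their centres lay at a median of 18.7 and 17.1 kb upstream, against 16.5 and 15.7 kb for the regions of genes without. The median gap to the promoter region of their own gene was 11.0 kb in both lists, and in 155 (32.5%) and 162 (32.1%) it was under 5 kb.

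The distal regions of genes without a promoter row were mostly far from any promoter region of the same list. These genes were picked for lacking a promoter region of their own in that list, so the nearest one was bound to name another gene. Some had a promoter row in the other list, as Jarid2 had in replicate 1. The median gap of these distal regions to the nearest promoter region of any gene was 165 and 153 kb in replicates 1 and 2. A promoter region lay within 50 kb of 261 of them (20.4%) and 270 of them (20.3%), and within 5 kb of 34 and 27. The name given to a region does not show that the region acts on that gene.

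CpG content of the promoters was similar at the median in genes with and without a promoter row. The ratio of observed to expected CG in the promoter window had a median of 0.70 for the 128 genes with distal and promoter rows in both replicates and a listed window, and of 0.68 for the 405 with distal rows in both and no promoter row. For protein-coding genes the medians were 0.73 and 0.71, against 0.57 for all 17273 protein-coding genes with a listed window and 0.69 for those with promoter rows in both. Genes named by distal regions thus had promoters richer in CpG at the median than protein-coding genes at large, whether or not their own start was called. This was not particular to the distal class, since protein-coding genes named by gene body rows in both replicates had a median of 0.69. The spreads also overlapped widely. For protein-coding genes the lower and upper quartiles were 0.505 and 0.894 with distal and promoter rows, and 0.423 and 0.895 with distal rows and no promoter row. For all protein-coding genes they were 0.236 and 0.818. The medians of the groups with and without promoter rows differed by 0.019 for genes named in both replicates. Over the genes named in one list they differed by 0.062 in replicate 1 and 0.015 in replicate 2, so the size of this difference depended on the replicate.

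The 12 pairs of overlapping distal regions with the highest mean of their width percentiles were 18.8 to 34.95 kb wide in replicate 1 and 21.5 to 34.7 kb in replicate 2. In 10 of them both replicates gave the same name, and of those 10 genes 5 had no promoter row, 2 had one in both replicates and 3 in a single replicate. Of the genes without a promoter row, Gm10782, a long noncoding RNA gene, had distal regions of 34.95 kb in replicate 1 (chr13:56324684-56359634) and 26.3 kb in replicate 2, which ended 3.27 and 4.89 kb before its start. The nearest promoter region in both lists was that of the neuronal determination gene Neurog1, 52.8 and 67.7 kb away. Neurog1 in turn had its own distal regions of 2.49 and 9.05 kb and promoter regions of 28.7 and 24.1 kb. Tmem33, which encodes a membrane protein of the endoplasmic reticulum, had distal regions of 29.6 kb (chr5:67210914-67240542) and 26.9 kb, centred 34.8 and 34.9 kb upstream.

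Rpl11 and Phb, like Gm10782, had no promoter row, so the promoter region nearest to their wide distal regions was bound to name another gene. Rpl11, a ribosomal protein gene, had distal regions of 23.6 kb (chr4:136065905-136089462) and 21.5 kb. The nearest promoter region, 40.8 and 47.7 kb away, was that of Id3, an inhibitor of bHLH factors, and Id3 itself had a distal region of 13.3 kb in replicate 1 and regions of 2.44 and 2.29 kb in replicate 2 on the same side. Phb, which encodes the mitochondrial protein prohibitin, had distal regions of 18.8 and 27.5 kb, and the nearest promoter region was that of the neurotrophin receptor gene Ngfr, 47.3 and 35.5 kb away. Plekha6, the fifth gene without a promoter row, had overlapping distal regions of 27.4 and 21.5 kb, which touched the bounds of the gene, and a further one of 2.14 kb in replicate 2. These neighbours were read from the lists after the named genes were known.

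Genes with a promoter row in both replicates had their wide distal region close to it. Ampd3, which encodes an AMP deaminase, had distal regions of 33.6 kb (chr7:110725203-110758769) and 30.5 kb, separated by 3.18 and 2.89 kb from promoter regions of 50.1 and 19.6 kb. Gm5122, a long noncoding RNA gene, had distal regions of 25.4 kb (chr9:60963518-60988916) and 34.1 kb, separated by 1.21 and 1.57 kb from promoter regions of 56.2 and 37.1 kb. At both genes a distal and a promoter region thus lay next to each other as separate calls in each replicate. Med13l, which encodes a Mediator subunit, had distal regions of 19.1 and 24.3 kb and a promoter region of 2.73 kb in replicate 1 alone. Bmp8b, a Bmp ligand gene, had distal regions of 19.2 and 21.6 kb and a promoter region of 7.34 kb in replicate 1 alone. Tmem181b-ps, with distal regions of 30.8 and 34.7 kb, is a transcribed pseudogene, so reads of related copies could have been placed there, which was not tested.

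At the other places among the 12 the replicates named different genes. On chromosome 18 a distal region of 34.4 kb named Nfatc1, a transcription factor of calcium signalling, in replicate 1 and one of 21.9 kb named Gm2176 in replicate 2. On chromosome 15 a distal region of 23.5 kb named Nfam1, an immune signalling receptor gene, in replicate 1 and one of 27.5 kb named the microRNA gene Mir3080 in replicate 2.

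Genes were also ranked by their number of distal rows in the replicate with fewer, and then by summed width. Of the first 10, 5 had promoter rows in both replicates, 4 had none and 1 had one in replicate 2 alone. Dmbx1, a homeobox gene of the developing brain, had 3 distal regions in each list around promoter regions of 30.4 and 24.1 kb. In replicate 1 they measured 5.38, 14.6 and 12.8 kb, and in replicate 2 3.70, 4.59 and 18.3 kb, of which the first in each list lay downstream of the start, at the far end of the gene. Rybp, which encodes a subunit of variant PRC1, also had 3 in each list, of 17.6, 10.4 and 6.73 kb in replicate 1 and 9.82, 8.22 and 5.27 kb in replicate 2. Its promoter regions measured 6.44 and 18.5 kb, and the distal regions reached 45.9 and 46.6 kb from the gene at the near edge of the farthest one. At both genes a promoter region and several distal regions followed each other with gaps between them in each replicate. Not all of these gaps fell at the same place in both lists. The 17.6 kb distal region of Rybp in replicate 1 overlapped the 18.5 kb promoter region of replicate 2 by 6.70 kb. The 4.59 kb distal region of Dmbx1 in replicate 2 overlapped the 30.4 kb promoter region of replicate 1.

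Genes without a promoter row could have several distal regions as well. Aldh1l1, a folate enzyme gene of astrocytes, had distal regions of 12.1, 4.715 and 12.97 kb in replicate 1 and of 4.14, 4.81, 2.604 and 5.93 kb in replicate 2. Atp1b3, which encodes a subunit of the sodium pump, had 4 in replicate 1, the widest 15.3 kb, and 3 in replicate 2, the widest 3.695 kb. Pvt1, the long noncoding RNA gene beside Myc, had 3 in each list, the widest 13.96 and 12.04 kb, together with gene body rows in both. In replicate 1 the widest lay 1.25 kb from a promoter region of 7.56 kb named for Myc. In replicate 2 the promoter region nearest to the widest named Fam49b, 2050 kb away. Gm11544 had 3 narrower ones in each list, the widest 11.9 and 5.33 kb.

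Xpa, a nucleotide excision repair gene, was called at its promoter in replicate 2 alone, over 9.90 kb. Its distal regions measured 12.4 and 17.9 kb in replicate 1 and 10.5, 11.5 and 3.92 kb in replicate 2. In replicate 1 the nearest promoter region was that of the forkhead gene Foxe1, 119.4 and 96.9 kb away. The other genes of this ranking were Tead1, Zfp395 and Gm21188, with promoter rows in both replicates. Gm21188 and Gm20767, which named the partner of a Gm21188 region of 21.7 kb in replicate 2, may share reads with similar copies, and these values are uncertain to that extent, which was not tested. Tead1, a transcription factor gene of the Hippo pathway, had distal regions of 17.0 and 19.1 kb in replicate 1 and of 11.3 and 19.3 kb in replicate 2, wider than its promoter regions of 3.50, 3.23 and 4.38 kb.

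**Figure D4:**
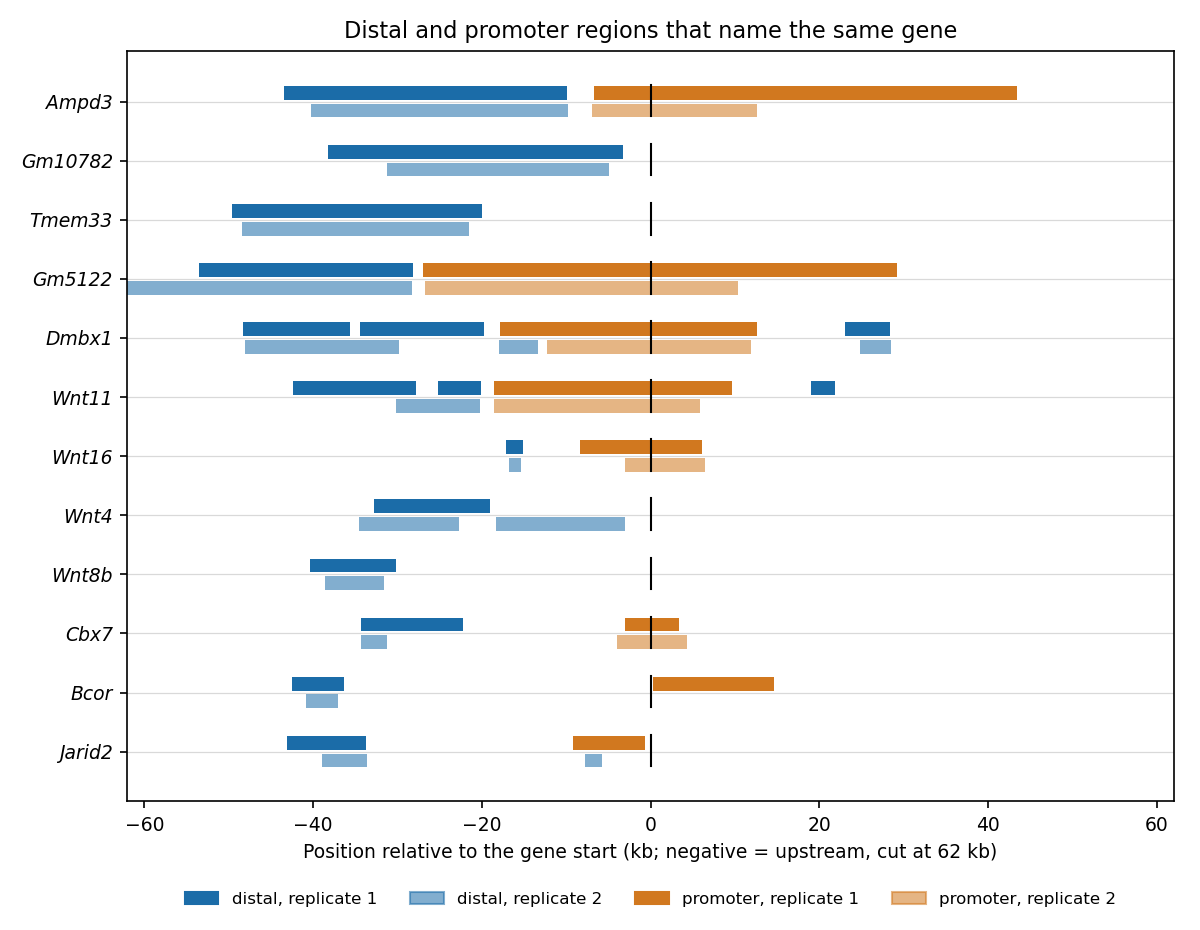
Distal regions (blue) and promoter regions (orange) that name the same gene, by position relative to a start of the gene (horizontal axis, kb, negative is upstream, cut at 62 kb), with replicate 1 above replicate 2 for each of 12 genes. At Ampd3 and Gm5122 the distal region adjoins a promoter region in both replicates, while Gm10782, Tmem33, Wnt4 and Wnt8b have distal regions in both and no promoter region.

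Members of 20 gene lists were then looked up among the distal names. Of 432 listed genes, 43 were named by a distal region in both replicates (9.95%), against 3.21% of all protein-coding genes. For 40 of the 43 these regions overlapped between the replicates, as they did for 623 of all 694 protein-coding genes named in both. Of the 43, 23 had promoter rows in both replicates, 8 in a single replicate and 12 in none. Over all 432 listed genes, 203 (47.0%) had promoter rows in both, so promoter rows were frequent in these lists with or without a distal name. The lists are short and no set test was run, so each count stands as a description.

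Wnt ligand genes, which encode secreted signals of patterning and epithelial renewal, had the highest share, 5 of 19 (26.3%). Wnt11 had distal regions of 14.6, 5.17 and 2.81 kb in replicate 1 and 1 of 10.1 kb in replicate 2, with promoter regions of 28.2 and 24.4 kb. Wnt7b, a ligand gene expressed in epithelia, had distal regions of 6.56 and 12.8 kb in replicate 1 and of 9.85 and 11.9 kb in replicate 2, with promoter regions of 25.7 and 12.1 kb. Wnt16 had narrow distal regions of 2.005 and 1.36 kb, centred 16.2 and 16.1 kb upstream, with promoter regions of 14.4 and 9.37 kb. These 3 genes carried both classes in both replicates. In the whole Wnt list 8 of 19 genes (42.1%) had promoter rows in both.

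Wnt4 and Wnt8b had distal regions without a promoter region. Wnt4 had 1 of 13.7 kb in replicate 1 (chr4:137244894-137258568) and 2 of 11.8 and 15.3 kb in replicate 2, the last of which ended 2.98 kb before the start. That region of replicate 2 had no partner in replicate 1, so the stretch nearest to the start was called in a single replicate. Wnt8b had distal regions of 10.2 and 6.92 kb, centred 35.3 and 35.1 kb upstream, and gene body rows in both replicates. A further 4 Wnt genes were named in a single replicate, Wnt5b, Wnt8a and Wnt9a in replicate 1 and Wnt2b in replicate 2.

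In the Hedgehog list 2 of 16 genes (12.5%) were named in both replicates. Smo, the signal transducer of the pathway, had distal regions of 1.28 and 10.2 kb in replicate 1 and of 2.69 and 1.78 kb in replicate 2, and no promoter row. Gli2, a transcription factor of the pathway, had distal regions of 8.015 and 1.74 kb, centred 30.4 and 32.8 kb upstream, and promoter regions of 13.4 kb in both. The co-receptor gene Cdon was named in replicate 1 alone. No distal region named Shh or the receptor gene Ptch1.

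In the Fgf list Fgfr2, a receptor gene of epithelia, had distal regions of 2.14 kb (chr7:130289914-130292054) and 2.205 kb (chr7:130289896-130292101), 2 narrow regions with nearly the same edges, and no promoter row. Fgfr1 was named in both lists by regions of 2.295 and 1.09 kb that did not overlap. In the Notch list Rbpj, the transcription factor gene of the pathway, was named in both by regions whose widest measured 14.9 and 6.94 kb, with no promoter row. In the Bmp and Tgf-beta list Id3, described above, was the one gene of 27 (3.70%), a share near that of all protein-coding genes.

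Homeobox genes had 11 of 83 named in both replicates (13.3%), 9 of them with promoter rows in both. En2, a gene of midbrain and cerebellar patterning, had distal regions of 18.8 and 17.2 kb, 19.04 and 18.6 kb from promoter regions of 28.3 and 29.6 kb. Vax1, a gene of the ventral forebrain and optic stalk, had a distal region of 16.5 kb in replicate 1 and regions of 4.92 and 13.5 kb in replicate 2. Dlx6, a gene of jaw and limb, had distal regions of 18.8 and 6.49 kb, and Dlx3, a gene of epidermis and teeth, had regions of 13.2 and 8.35 kb. Pitx1, a gene of the oral ectoderm and hind limb, had distal regions of 16.3 and 2.62 kb and a promoter region of 9.75 kb in replicate 1 alone. In this list 86.7% of genes had promoter rows in both replicates, so a distal region was the exception and a promoter region the usual state.

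Among the T-box, Gata, Sox and Fox genes 5 of 54 were named in both (9.26%). Foxe1 had distal regions of 10.5 and 4.06 kb in replicate 1 and of 2.82, 4.40, 1.82 and 12.9 kb in replicate 2, with promoter regions of 24.1 and 22.3 kb. Gata6, a gene of endoderm and heart that is also expressed in skin, had distal regions of 5.48 kb (chr18:11011292-11016769) and 5.28 kb (chr18:11011273-11016550), which matched closely at both edges. Tbx3, Foxq1 and Gata5 were the others, of which Gata5 (8.32 and 4.52 kb) had no promoter row. Among bHLH genes 3 of 29 were named in both, namely Neurog1 and the mesenchymal genes Tcf21 (10.2 and 8.05 kb) and Twist2.

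Genes of the Polycomb machinery had 6 of 29 named in both replicates (20.7%), 3 of them with promoter rows in both. In the whole Polycomb list 11 of 29 (37.9%) had promoter rows in both. Cbx7 and Cbx2 encode chromodomain subunits of canonical PRC1. Cbx7 had distal regions of 12.1 and 3.15 kb. Cbx2 had distal regions of 9.08 and 7.60 kb in replicate 1 and of 7.18 and 3.175 kb in replicate 2. A promoter region of 23.6 kb named both Cbx2 and Cbx8 in replicate 1. In replicate 2 the nearest promoter region, of 7.15 kb, named Cbx8 alone, 32.3 and 22.9 kb from the distal regions. The name Cbx2 was thus missing from the promoter rows of replicate 2, which does not mean that no promoter region was called nearby. Jarid2, an accessory subunit of PRC2, had distal regions of 9.405 kb in replicate 1 and of 5.305 and 2.01 kb in replicate 2, the last inside a promoter region of 8.52 kb that replicate 1 had. Bcor, a subunit of variant PRC1 on chromosome X, had distal regions of 6.19 and 3.85 kb. Rybp, described above, was also among them.

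Lists of the epithelium and of other cell types held 0 to 2 distal names each, and as the lists are short, their shares ran from 0 to 14.3%, against 3.21% of all protein-coding genes. No gene of the 13 basal keratinocyte genes was named in both replicates, and Itgb1 was named in replicate 1 alone. Of 22 genes of differentiated keratinocytes, 2 were named in both (9.09%). Krt76, a keratin of the palate and oral lining, had distal regions of 16.8 and 10.5 kb, which ended 1.03 and 1.74 kb from a promoter region named for Krt4 (in replicate 2 also for Krt78 and Krt79). Krt10, a keratin of cornified epithelium, had distal regions of 2.22 and 4.17 kb in replicate 1 and of 5.06 kb in replicate 2. The distal regions of Krt76 lay closer to that promoter region than to Krt76 itself, which was 4.23 and 10.2 kb away.

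Among 22 taste bud genes Itpr3, a calcium channel of taste transduction, was the one named in both, by regions of 7.19 and 2.99 kb in replicate 1 and 7.41 kb in replicate 2, with no promoter row. Krt20, a keratin of Merkel cells, had distal regions of 5.21 and 2.38 kb and no promoter row, 1 of 13 genes of its list. The immune gene Spi1 had 4.86 and 1.78 kb, and the muscle progenitor gene Pax7 had 1.75 and 7.06 kb. None of the 8 endothelial genes and none of the 8 genes of glia and melanocytes was named in both. Of 20 housekeeping genes 2 were named in both, Rps3 by regions of 12.5 kb in replicate 1 and 3.09 and 6.70 kb in replicate 2, and Actb by regions of 12.6 and 4.73 kb that did not overlap. The lists hold regions of a histone mark and no RNA levels, so they do not show which cell types the sorted cells included.

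**Figure D5:**
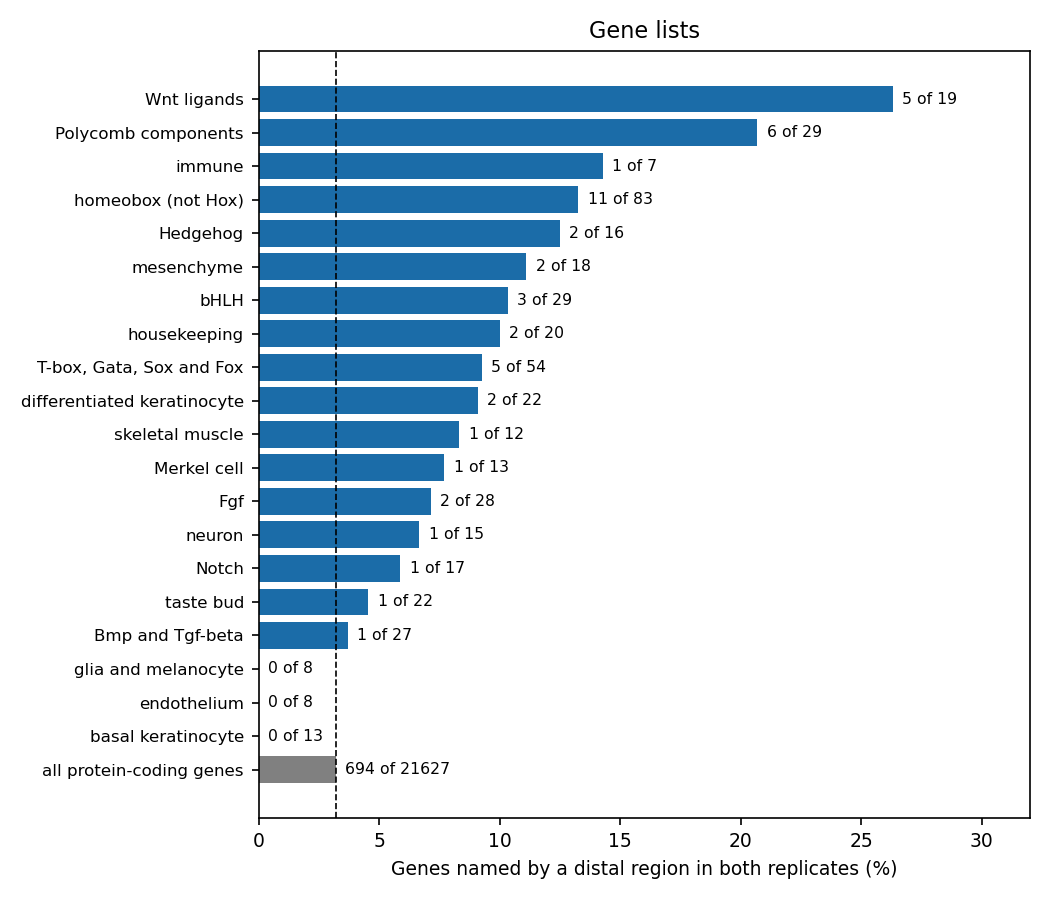
Share of the genes of each list that a distal region named in both replicates (horizontal axis, %), with the counts beside the bars and all protein-coding genes in grey. Wnt ligand genes stood at 26.3% and Polycomb genes at 20.7%, and the dashed line marks the 3.21% of all protein-coding genes.

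MicroRNA genes were named by distal regions as well, 27 in replicate 1, 26 in replicate 2 and 17 in both. Of the 17, 13 had no promoter row and 3 had promoter rows in both replicates. Over all 825 genes named in both, 526 (63.8%) had no promoter row and 176 (21.3%) had one in both. The microRNA counts are small, and they are not read as a trait of microRNA genes. What share of all microRNA genes they make is not given here. Mir34a had distal regions of 7.41 and 6.87 kb, and Mir34b had regions of 5.73 and 1.48 kb. The mature 5p microRNAs of these genes are shown because they share a seed (bases 2 to 8, in capitals), from RefSeq on GRCm38.p6.
mmu-miR-34a-5p: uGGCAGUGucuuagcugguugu
mmu-miR-34b-5p: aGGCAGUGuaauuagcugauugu
Mir34b was also named by promoter rows in both replicates, which name Mir34c and 4833427G06Rik too, while Mir34a had none.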

How the data were processed

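H2AK119ub ChIP-seq was deposited as 1 list of called regions per replicate, each row giving a chromosome, start, end, location class and gene names, as read from the files. Reads were processed with Bowtie2 2.3.3 and SAMtools 0.1.19 on mm10, per the submitters' processing notes, which give no role for either tool. For the region caller, its threshold, any use of the input and the class distances, nothing is stated in those notes or the labels. The deposited starts and ends are positions, and the lists hold no count, so depth per library is unknown.

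Overlaps of at least 1 bp, widths and gaps to genes were computed with pandas 2.3.3, and exact (Clopper-Pearson) 95% intervals with scipy 1.17.1, and the overlap code was tested on simulated data. Gene bounds and promoter windows (250 bases before to 50 after a start) were RefSeq's on GRCm38.p6, and names matched for 2204 of 2206 genes. Both replicates form 1 group, so no test was run. Named genes are those of the 12 widest overlapping pairs, the first 10 genes by distal regions in the replicate with fewer and then by summed width, at most 6 per gene list, and 10 chosen genes. The nearest promoter region's gene, genes named in a single replicate, Gse1 and the microRNAs were chosen after their values were seen. The gene lists and members were chosen with earlier results of these data known. The alternatives tried are given at the end. Some genes that met the naming rule are not reported here.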

Additional observations from a re-analysis of the deposited data

How the results depend on the processing

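The 9 results were recomputed under alternatives that gave 50 values, of which 27 stayed the same, 23 moved and 0 changed direction. Same meant within the spread between replicates, or within 1.5 times for counts. For the share of distal-named genes with a promoter row it meant within the exact interval of the main value, 18.6 to 24.3%. The C and G share has other units than the CpG ratio, so it could only count as moved or reversed. Counts for either replicate or a single replicate could not fall below those for both, so their direction was fixed in advance. Only the CpG difference between groups had a direction that could change, so the 0 says nothing about the other results. Requiring an overlap of 50% of both regions lowered the share of distal regions that overlap any region to 27.9% and a distal region to 26.4%, against 56.0% and 48.2% at 1 bp, and requiring 50% of the shorter region gave 51.1% and 44.5%. With only regions above the median width of their list, the distal share was 17.1%, the overlaps 52.0% and 42.8%, the genes named in both replicates 278 and the list members 23. That filter was applied to both lists, so narrower partners were lost as well. Its overlaps are therefore not comparable with the shares by width given earlier, which kept all regions of the other list. Counting a name in either replicate gave 2206 genes and 91 list members. The share of distal-named genes with a promoter row was 36.2% with a row in either replicate and 31.2% with the gene body class included. The median gap of 13001 bp became 12144 bp for protein-coding genes and 9412 bp to the nearest protein-coding gene. With the C and G share in place of the CpG ratio, the groups with and without promoter rows differed by 2.75 percentage points. With a single replicate the genes ran from 1489 to 1542, the promoter share from 25.6 to 26.8%, the list members from 65 to 69 and the CpG difference from 0.015 to 0.062. Keeping only regions centred 2 to 50 kb upstream, an alternative chosen after seeing the data, gave an overlap of 55.9% and a median width of 3502 bp. The cause of these moves was not tested beyond what each alternative's construction fixes. No paired analysis was possible because both replicates belong to 1 group and the input was not analysed here. Depth is unknown, so a region absent from a list was not called there and is not shown to lack the mark.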

Other observations

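The distal share of a chromosome's regions varied. On chromosome 11 it was 185 of 727 regions in replicate 1 (25.4%) and 214 of 773 in replicate 2 (27.7%), and on chromosome 17 it was 97 of 373 (26.0%) and 88 of 361 (24.4%). In both lists it was lowest on chromosome 16, at 17.4% and 16.9%, and was 18.8% and 18.2% on chromosome 8. Chromosome X had 30 distal regions in each list. Of the genes looked up one by one, Shh, Ptch1, Sox2, Pou2f3, Prox1, Krt5, Krt14 and Trp63 were named by no distal region in either replicate, while promoter regions covered Shh and Sox2 in both.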
